A study of Mus musculus with 16 samples.

Results

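The complement genes C1qa, C1qb, C1qc, C3, C4b, Cfb, Serping1, C3ar1 and C5ar1 were followed across mouse microglia and astrocyte libraries. They were taken by gene symbol and are 9 of 55414 features in the microglia data and 9 of 56980 in the astrocyte data, and each symbol stood for 1 feature. RNA was sequenced from 16 libraries, with 2 libraries in each of 4 groups per cell type. The groups were wild type (WT), a conditional Rack1 knockout (CKO), mice modelling Alzheimer's disease whose Rack1 was intact (AD WT), and mice carrying both the disease model and the deletion (AD CKO). Rack1 encodes a ribosome-associated scaffold, and per the design text its knockout was targeted to microglia, so the astrocytes of CKO mice come from brains with knockout microglia. The protocol text speaks of RNA extracted from tissue. The AD model, the Cre driver, the ages, the way in which cells were isolated and the number of animals behind a library are not given in the sources used here. If the libraries of a group shared animals, the p-values below measure only technical spread.

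Complement is a cascade of blood and tissue proteins that tags targets for uptake and calls in immune cells. C1q, built from chains encoded by C1qa, C1qb and C1qc, starts the classical pathway, which runs through C4 to C3. Factor B, encoded by Cfb, amplifies C3 cleavage in the alternative pathway, and the C1 inhibitor, encoded by Serping1, restrains the first step. C3ar1 and C5ar1 encode the receptors of the released peptides C3a and C5a. In the brain C1q is made mainly by microglia, and C1q and C3 are known for marking synapses for removal.

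All members lie on the minus strand of the mm10 genome in the GENCODE M21 annotation, and the C1q genes form a cluster. C1qb (chr4:136880129-136886187), C1qc (chr4:136889804-136893065) and C1qa (chr4:136895917-136898803) follow each other on chromosome 4 with 3616 and 2851 bases between them. C4b (chr17:34728380-34743882), Cfb (chr17:34856374-34862518) and C3 (chr17:57203970-57228136) share chromosome 17. Serping1 lies at chr2:84765387-84775444, C3ar1 at chr6:122847138-122856161 and C5ar1 at chr7:16246743-16259540. All 9 are annotated as protein coding.

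Upstream sequences from RefSeq (GRCm38.p6) matched 5 of the 9 members, C1qb, C1qc, C3, C3ar1 and C5ar1. The 250 bases before the RefSeq start are shown for C3, the member with the largest change in microglia, and for C1qb, the member with the largest change in astrocytes. The RefSeq start is the GENCODE start in C3 and lies 13 bases upstream of it in C1qb. In C1qc, C3ar1 and C5ar1 it lies downstream, so that 151, 4 and 202 bases of their windows fall inside the GENCODE gene. Each is written 5′ to 3′ on the minus strand. In C3 the capitals mark matches to TTNCNNAA, a core of C/EBP sites, and in C1qb they mark GAGGAA, a core bound by PU.1, on either strand.
C3, chr17:57228137-57228386: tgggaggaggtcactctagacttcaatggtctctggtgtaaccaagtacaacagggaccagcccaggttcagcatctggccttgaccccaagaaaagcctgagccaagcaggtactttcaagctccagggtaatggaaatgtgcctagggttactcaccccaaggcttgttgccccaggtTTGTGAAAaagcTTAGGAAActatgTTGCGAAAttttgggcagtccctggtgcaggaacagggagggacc
C1qb, chr4:136886201-136886450: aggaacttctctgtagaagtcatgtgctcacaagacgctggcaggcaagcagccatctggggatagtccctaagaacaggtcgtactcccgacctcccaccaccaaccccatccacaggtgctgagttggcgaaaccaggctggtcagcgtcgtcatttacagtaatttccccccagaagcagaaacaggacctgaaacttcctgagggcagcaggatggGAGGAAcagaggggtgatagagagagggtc

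The C3 window held 3 matches to TTNCNNAA, beginning 70, 58 and 45 bases before the RefSeq start and not overlapping each other. Of 32851 RefSeq windows of the same length, 36.8% held at least 1 such match and 2.61% held 3 or more. GAGGAA stood 30 bases before the RefSeq start in C1qb and 193 bases before it in C1qc, which is 43 and 42 bases before the GENCODE starts, and 23.3% of all windows held it. C1qc also held TTNCNNAA, 81 bases before the RefSeq start, and C5ar1 held it 157 bases before it, and both matches fall inside the GENCODE genes. The interferon-stimulated response element and TTCNNNGAA (the GAS element) were in none of the 5 windows, and TGANTCA (AP-1) was in that of C3ar1 only, 22 bases before the start. They were in 2.98%, 7.02% and 6.75% of all windows. All motifs were read on both strands. A match describes letters and is not a measured binding site.

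The microglia libraries held 27741882 to 33933068 counts each and the astrocyte libraries 29615853 to 35851170. Levels are given in CPM, counts relative to the scaled library total of each cell type, and compared between genes only as RPKM, which divides CPM by length. Genes were tested with edgeR over all genes of a cell type, and one with a Benjamini-Hochberg adjusted p under 0.05 is said to have risen, fallen or changed. Rack1 fell in CKO microglia from 98.1 and 95.2 CPM to 40.4 and 42.0 CPM, and in AD CKO microglia to 47.2 and 47.8 CPM from 113 and 115 CPM in AD WT. In the astrocyte libraries Rack1 rose in CKO from 61.1 and 57.9 CPM to 102 and 95.7 CPM (0.74 ± 0.06). In the AD model it fell there, from 76.6 and 72.9 CPM to 54.7 and 53.3 CPM (−0.47 ± 0.06). The 10 microglia markers summed to between 24070 and 47520 CPM in the microglia libraries and to between 492.5 and 1221 CPM in the astrocyte libraries. The 10 astrocyte markers summed to between 10630 and 25130 CPM in the astrocyte libraries, where the 10 oligodendrocyte markers reached between 6961 and 19230 CPM. In bulk RNA fewer cells of a type and less RNA per cell cannot be told apart.

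In WT the members split by cell type. The C1q chains and both receptors stood far higher in the microglia than in the astrocyte libraries, whereas Serping1 and Cfb stood higher in the astrocyte libraries. In a joint fit all 9 differed, 7 higher and 2 lower in microglia. Of the 20589 genes tested there 79.0% differed, 39.5% higher and 39.4% lower. C1qb was at 5765 ± 322 CPM in microglia and 36.9 ± 1.03 CPM in astrocytes on the joint scale (SD, n = 2), a log2 difference of 7.29 ± 0.06 (SE). C1qa and C1qc differed by 7.27 each, C3ar1 by 7.08 ± 0.09 and C5ar1 by 5.67 ± 0.07. The secreted components other than C1q were closer, with C3 higher in microglia by 1.38 ± 0.11 and C4b by 0.51 ± 0.07. Upper quartile scaling moved the median of all genes by −0.27 and scaling by totals by −0.29. The size of small differences such as that of C4b thus depends on the scaling, which its SE does not cover. Serping1 was lower in microglia (−1.60 ± 0.14), and so was Cfb (−0.50 ± 0.19), a call lost without WT replicate 1 of either cell type. The 10 microglia markers themselves had a median log2 difference of 7.27. Cell type and the table a library was deposited in cannot be told apart.

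Per length, C1qb was the most abundant member in WT microglia, at 4616 RPKM, and C1qa stood at 3184 RPKM. C1qc stood at 2432 RPKM by all its exons and at 3904 RPKM by its principal transcript, so its place relative to C1qa depends on the transcript assumed. C3ar1 followed at 93.5 RPKM and C5ar1 at 71.7 RPKM. The other members were much lower, C4b at 8.48, Serping1 at 2.09, C3 at 1.90 and Cfb at 1.3 RPKM. Serping1 (SD 0.509) and C3 (SD 0.178) did not differ beyond their spread.

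**Figure D1:**
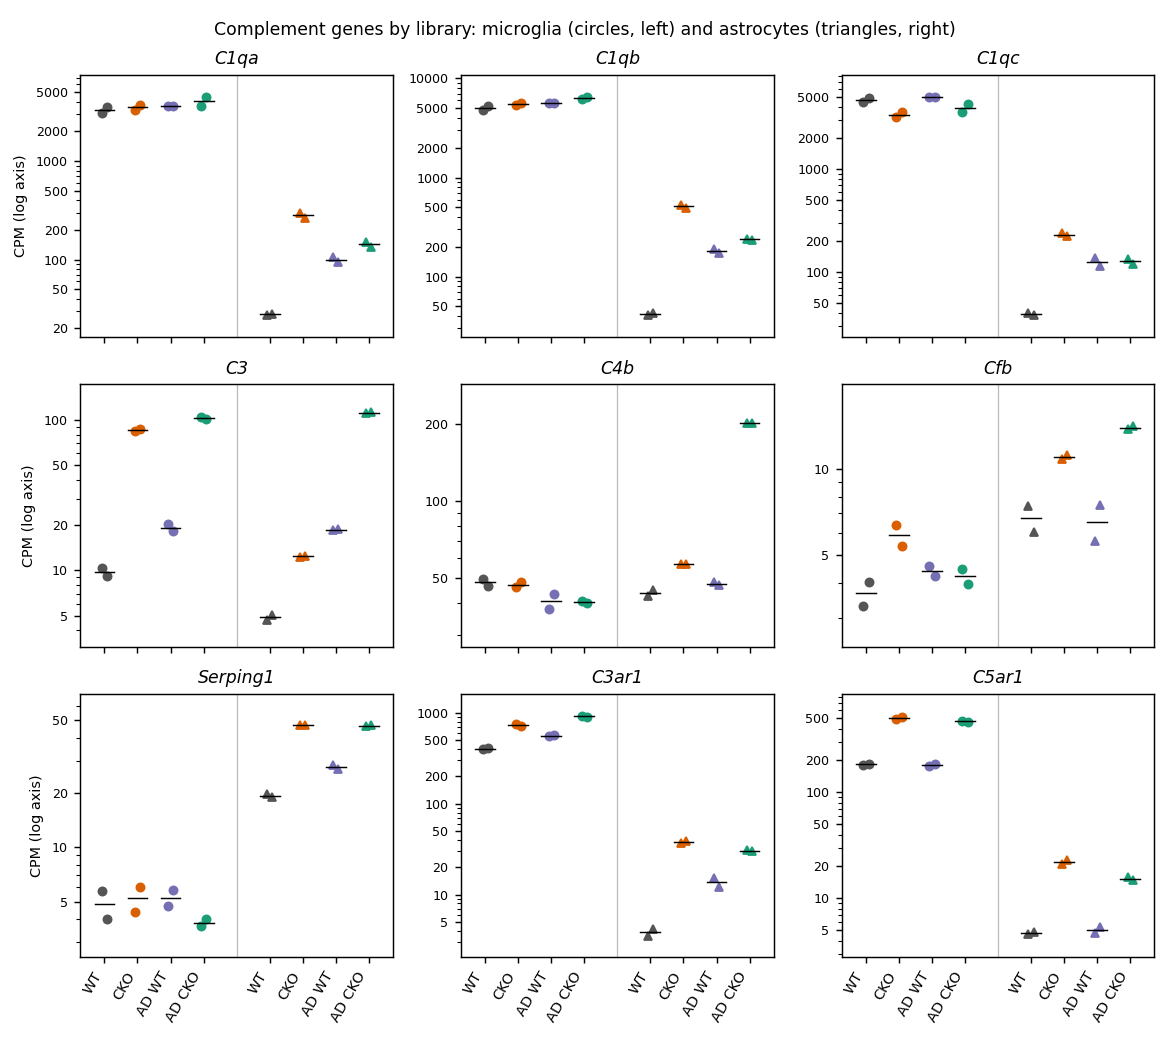
CPM of each member in each library on a log axis, with microglia as circles on the left and astrocytes as triangles on the right of every panel, 2 points per group and the group mean as a bar. The 2 cell types were scaled separately. C3 reached 102 to 113 CPM in the AD CKO libraries of both cell types, and C4b stood at 201 CPM in both AD CKO astrocyte libraries.

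In microglia the knockout raised C3 and both anaphylatoxin receptors, in WT mice and in the AD model alike, and left C1qa, C4b and Serping1 without a called change. In CKO vs WT, which asked what loss of Rack1 changed without the AD model, 5 of the 9 members rose and 1 fell. Of the 17318 genes tested 33.6% changed, 17.7% higher and 15.9% lower. The same question was asked within the AD model as AD CKO vs AD WT. There 4 members rose and none fell in the main edgeR fit, beside 32.0% of genes that changed, 17.0% higher and 15.0% lower. At an unadjusted p under 0.05 C1qc was the 1 member lower there, and DESeq2 called it. The median log2 fold change of the members was 0.15 and 0.16, and that of all genes tested 0.04 and −0.002.

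C3, the central component on which all pathways converge, had the largest response. It stood at 10.4 and 9.15 CPM in WT, 84.0 and 86.8 CPM in CKO, 20.3 and 18.3 CPM in AD WT, and 105 and 102 CPM in AD CKO microglia. No group overlapped another, and the order ran from WT through AD WT and CKO to AD CKO. The knockout raised C3 by 3.12 ± 0.09 on the log2 scale outside the AD model (8.71-fold, adjusted p = 2.46e-21) and by 2.42 ± 0.08 within it (adjusted p = 2.63e-19). The rise was smaller in the AD model by an interaction of −0.70 ± 0.12 (adjusted p = 8.59e-05). The AD model raised C3 by 0.98 ± 0.09 with intact Rack1, and by 0.28 ± 0.07 in the knockout, a call lost when libraries were scaled by their totals alone (0.18, adjusted p = 0.0784).

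C3ar1, the receptor of C3a, followed the same order of groups. It stood at 399 and 406 CPM in WT, 558 and 568 in AD WT, 750 and 718 in CKO, and 932 and 895 CPM in AD CKO microglia, again without overlap. It rose by 0.87 ± 0.04 with the knockout and by 0.70 ± 0.04 within the AD model, and by 0.48 ± 0.04 and 0.32 ± 0.04 with the AD model in intact and knockout microglia. Its interaction of −0.17 ± 0.06 passed narrowly (adjusted p = 0.0458). That call was lost with RLE size factors, without a count filter, and without any 1 of WT replicate 1 or 2, CKO replicate 1, AD WT replicate 1 or 2, or AD CKO replicate 2.

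C5ar1, the receptor of C5a, rose with the knockout and had no called response to the AD model. Its levels were 183 and 185 CPM in WT and 178 and 183 CPM in AD WT, which overlapped, against 490 and 511 CPM in CKO and 473 and 459 CPM in AD CKO. The knockout raised it by 1.44 ± 0.04 (2.72-fold, adjusted p = 2.89e-20) and within the AD model by 1.37 ± 0.04. The AD model gave −0.03 ± 0.04 with intact Rack1 (adjusted p = 0.724) and −0.10 ± 0.04 in the knockout (adjusted p = 0.11). The last value passed with upper quartile scaling (−0.14), with scaling by totals (−0.20) and with a filter of 1 CPM (−0.12). C5ar2, which encodes a second C5a receptor and is no member, moved the other way with the knockout, from 80.4 ± 2.42 to 32.8 ± 2.15 CPM (−1.29 ± 0.07).

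Markers of other cells moved in the same microglia libraries. All 10 microglia markers fell in CKO vs WT, and their sum went from between 45960 and 47520 CPM to between 24070 and 24390 CPM. In AD CKO vs AD WT 7 of 10 fell and 1 rose, from between 40260 and 40730 to between 26070 and 26140 CPM. Border macrophage markers rose in 5 of 7 genes in CKO and in 4 of 7 in AD CKO, and their sum was 205.4 to 205.7 CPM in WT, 503 to 504.5 in CKO, 177.5 to 178 in AD WT and 398.3 to 401.1 CPM in AD CKO. Neutrophil markers rose in all 7 genes in CKO, from between 219.1 and 238.5 to between 600.8 and 601.6 CPM, and fell in 6 of 7 in AD CKO vs AD WT, from between 424 and 428.3 to between 263.5 and 281.6 CPM. Monocyte markers rose in 3 of 5 genes in CKO, and their sum was 67.73 to 70.91 CPM in WT, 118.1 to 121.4 in CKO, 74.41 to 76.98 in AD WT and 69.35 to 71.46 CPM in AD CKO. No gene of these 4 lists was at 0 in any microglia library. Oligodendrocyte markers rose in 5 of 10 genes and fell in 2 in CKO, and fell in 9 of 10 in AD CKO vs AD WT, where 1 was at 0 in an AD CKO library. Their sum was 3152 to 3294 CPM in WT, 8238 to 8631 in CKO, 3759 to 3761 in AD WT and 2268 to 2319 CPM in AD CKO. With the AD model alone all 8 endothelial and all 8 mural markers rose. In AD CKO vs AD WT 6 of 8 of each fell. The endothelial sum was 485.9 to 492.9 CPM in WT and 830.9 to 840.5 in AD WT. The mural sum was 216 to 220.9 CPM in WT and 338.5 to 343.9 in AD WT. Neuron markers rose in 6 of 10 genes in CKO, and astrocyte markers fell in 8 of 10 in AD CKO vs AD WT. The part of all these cells in the changes of C3, C3ar1 and C5ar1 was not tested.

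The C1q chains moved little in microglia, but not together. C1qb stood at 4820 and 5223 CPM in WT, 5438 and 5686 in CKO, 5649 and 5596 in AD WT, and 6151 and 6544 CPM in AD CKO. It rose in all 4 comparisons between groups, by 0.15 to 0.19 with a standard error of 0.04 each. None of these 4 calls passed with limma-voom, and that of CKO vs WT was also lost without WT replicate 1 or CKO replicate 2 and that of AD WT vs WT without WT replicate 1. C1qa stood at 3088 and 3536 CPM in WT, 3333 and 3738 in CKO, 3643 and 3617 in AD WT, and 3629 and 4500 CPM in AD CKO. Its groups overlapped with the knockout and it changed in no comparison, with log2 fold changes of 0.09 to 0.20 and a standard error of 0.14.

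C1qc, which lies between C1qb and C1qa, was lower in the knockout. It stood at 4474 and 4918 CPM in WT and 5020 and 5018 CPM in AD WT, against 3203 and 3585 CPM in CKO and 3615 and 4277 CPM in AD CKO, so that no knockout library reached an intact one. It fell in CKO vs WT by 0.47 ± 0.11 on the log2 scale (adjusted p = 0.037), and within the AD model the value was −0.35 ± 0.11 (adjusted p = 0.0861). The first call was lost on leaving out any 1 of the WT, CKO or AD WT libraries (−0.40 to −0.55). The second passed with DESeq2 (−0.36), without a count filter (−0.36), with a replicate block (−0.35) and without AD CKO replicate 2 (−0.47).

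How the authors assigned reads bears on C1qa and C1qc. Both carried fractional counts in all 8 microglia libraries, and in all 8 the sum of both was whole within 0.01, whereas C1qb counts were whole. The summed C1qa and C1qc counts gave −0.21 in CKO vs WT (adjusted p = 0.299) and −0.11 within the AD model (adjusted p = 0.585). In the astrocyte libraries C1qa and C1qc counts were whole in all 8. C4b showed the same pattern with C4a, its near-identical neighbour, and summing them changed none of its calls.

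Ratios of the chains within a library do not depend on scaling. The C1qb to C1qc ratio was 1.08 and 1.06 in WT and 1.13 and 1.12 in AD WT microglia, and 1.70 and 1.59 in CKO and 1.70 and 1.53 in AD CKO. The C1qa to C1qc ratio was 0.690 and 0.719 in WT and 0.726 and 0.721 in AD WT, and 1.04 and 1.04 in CKO and 1.00 and 1.05 in AD CKO. Knockout and intact libraries did not overlap in either ratio. In the astrocyte libraries the C1qb to C1qc ratio was 1.01 and 1.11 in WT, 1.37 and 1.51 in AD WT, 2.21 and 2.22 in CKO, and 1.80 and 1.96 in AD CKO. Their C1qa to C1qc ratio lay between 0.674 and 0.818 in intact and between 1.12 and 1.25 in knockout libraries. C1qb relative to the sum of both other chains lay between 0.618 and 0.652 in intact and between 0.746 and 0.849 in knockout microglia, and between 0.604 and 0.830 and between 0.848 and 1.02 in astrocytes. An exact two-sided permutation test of the log2 ratios, 4 knockout against 4 intact libraries, gave p = 0.0286 for each of these 6 ratios (adjusted p = 0.0286 over the 6). That test exchanges AD and non-AD libraries. Exchanging labels only within each background, in 36 arrangements, gave an exact p = 0.0556 for each (adjusted p = 0.0556). Both are the smallest values that the respective arrangements allow, so the second cannot pass 0.05, and the ratios were chosen after their values were seen.

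**Figure D2:**
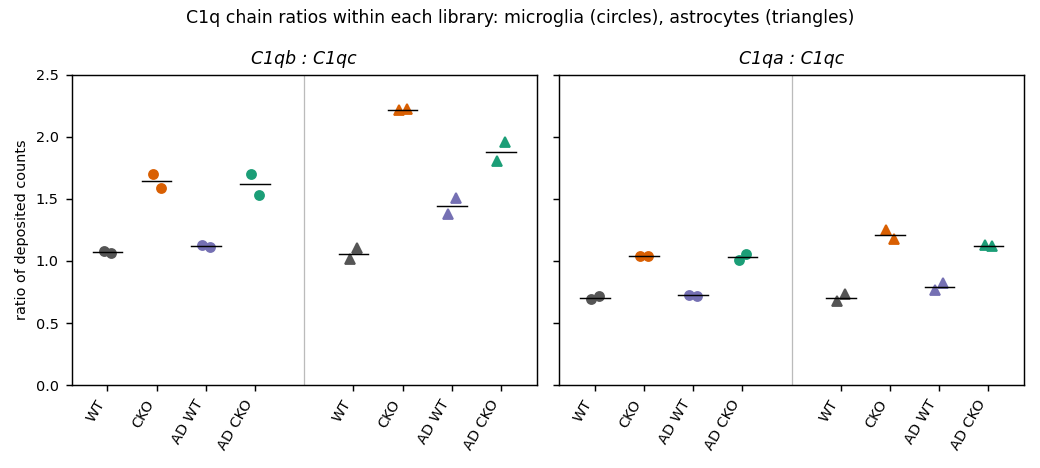
Ratio of the deposited counts of C1qb to C1qc (left) and of C1qa to C1qc (right) in each library, with microglia as circles and astrocytes as triangles, 2 points per group and the mean as a bar, on a linear axis from 0. In microglia both intact groups sit below both knockout groups, at 1.06 to 1.13 against 1.53 to 1.70 for C1qb to C1qc.

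The remaining secreted members were low in microglia. C4b, the classical pathway component downstream of C1, stood at 49.8 and 46.7 CPM in WT, 46.1 and 48.4 in CKO, 38.0 and 43.5 in AD WT, and 40.7 and 40.2 CPM in AD CKO. It fell with the AD model by 0.25 ± 0.08 (adjusted p = 0.0283), a call lost with DESeq2 (−0.24) and without WT replicate 1 (−0.20) or AD WT replicate 1 (−0.15). With the knockout it gave −0.03 ± 0.08 and −0.01 ± 0.08. Cfb, which encodes factor B, rose in CKO vs WT from 3.32 and 4.03 to 6.36 and 5.37 CPM (0.68 ± 0.21, adjusted p = 0.0136), a call lost without WT replicate 1 (0.54) or CKO replicate 1 (0.52). Within the AD model it gave −0.06 ± 0.21. C2, the classical pathway counterpart of factor B encoded beside it and no member, rose in CKO vs WT by 0.72 ± 0.24 from 2.09 and 2.28 to 3.63 and 3.56 CPM. It fell in AD CKO vs AD WT by 0.96 ± 0.24, from 5.11 and 5.12 to 2.81 and 2.45 CPM. Serping1 lay between 3.66 and 6.03 CPM in all 8 libraries and changed in no microglia comparison.

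The AD model alone, compared as AD WT vs WT, raised C3, C3ar1 and C1qb and lowered C4b. These 4 of 9 members stand beside 19.3% of genes that changed, 10.7% higher and 8.62% lower. Within knockout mice, as AD CKO vs CKO, C3, C3ar1 and C1qb rose, 3 of 9 beside 14.7% of genes that changed, 7.73% higher and 6.92% lower. None fell in the main edgeR fit or by DESeq2, and at an unadjusted p under 0.05 C4b, Cfb and C5ar1 were the 3 members lower. In edgeR C4b did pass as lower with upper quartile scaling (−0.26) and with scaling by totals (−0.315). It also passed with the filter of 1 CPM (−0.24), a replicate block (−0.22) and the compared groups alone (−0.23). The settings in which C5ar1 passed are given above. The interaction was called for 2 of 9, C3 and C3ar1, both negative, beside 12.7% of genes, 5.53% positive and 7.19% negative. The comparisons share groups and are not independent of each other.

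**Figure D3:**
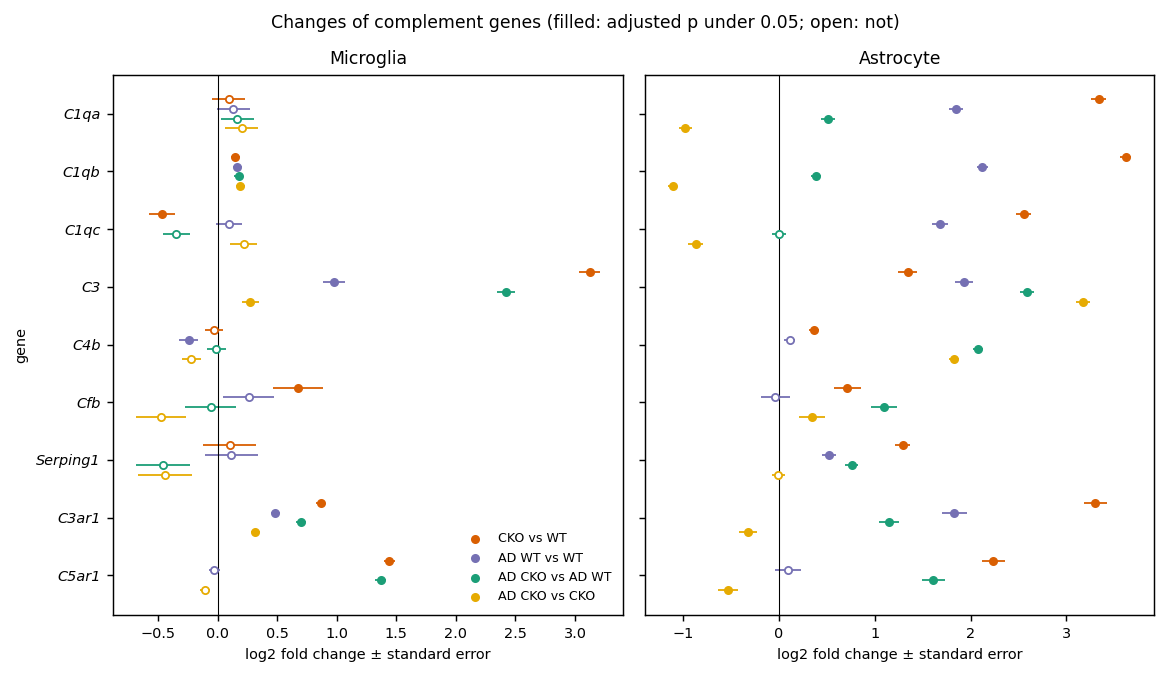
Log2 fold change of each member, with its standard error as a bar, for 4 comparisons in microglia (left) and astrocytes (right). Filled points passed an adjusted p of 0.05 and open points did not, and the 2 horizontal axes differ in range. C3 reaches 3.12 in CKO vs WT microglia and 3.18 in AD CKO vs CKO astrocytes.

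In the astrocyte libraries more members changed, as did more genes at large. With the knockout outside the AD model all 9 rose. Of the 20116 genes tested 64.0% changed there, 31.6% higher and 32.4% lower. Within the AD model 8 of 9 rose with the knockout and C1qc was not called, beside 52.1% of genes, 25.1% higher and 27.0% lower. The AD model alone raised 6 of 9, leaving C4b, Cfb and C5ar1 uncalled, beside 38.0% of genes, 20.0% higher and 18.0% lower. The AD model within the knockout raised C3, C4b and Cfb and lowered 5, the C1q chains and both receptors, beside 59.8% of genes, 31.4% higher and 28.4% lower. The interaction was called for 8 of 9, 2 positive and 6 negative, beside 57.8% of genes, 29.5% positive and 28.3% negative.

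The C1q chains were highest in CKO astrocytes. C1qb stood at 40.9 and 42.6 CPM in WT, 528 and 499 in CKO, 189 and 175 in AD WT, and 240 and 236 CPM in AD CKO. The 4 groups did not overlap. C1qb rose by 3.62 ± 0.06 with the knockout (12.3-fold, adjusted p = 1.19e-22), by 2.12 ± 0.06 with the AD model and by 0.39 ± 0.05 in AD CKO vs AD WT, and fell by 1.11 ± 0.05 in AD CKO vs CKO. C1qa went from 27.2 and 28.3 CPM in WT to 297 and 264 in CKO, with 105 and 94.6 in AD WT and 150 and 135 CPM in AD CKO. C1qc went from 40.4 and 38.5 CPM in WT to 239 and 225 in CKO, a rise of 2.55 ± 0.08. Its levels in AD WT (138 and 116 CPM) and AD CKO (133 and 121 CPM) overlapped, with a log2 fold change of 0.002 ± 0.07, although scaling by totals alone gave 0.20 with an adjusted p of 0.0228.

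Both receptors rose with the knockout. C3ar1 rose from 3.51 and 4.14 CPM in WT to 36.7 and 39.1 in CKO (3.30 ± 0.12), and stood at 15.3 and 12.03 in AD WT and 30.6 and 30.0 CPM in AD CKO. C5ar1 rose from 4.59 and 4.79 CPM in WT to 21.3 and 23.1 in CKO (2.24 ± 0.12), and from 4.69 and 5.35 in AD WT to 15.8 and 14.9 CPM in AD CKO (1.61 ± 0.12). As in microglia, C5ar1 had no called response to the AD model with intact Rack1 (0.10 ± 0.14, adjusted p = 0.619), whereas C3ar1 rose by 1.83 ± 0.13. In AD CKO vs CKO C3ar1 fell by 0.32 ± 0.09 and C5ar1 by 0.53 ± 0.11. The C3ar1 call was lost with scaling by totals (−0.21) and without CKO replicate 2 (−0.27).

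Microglial RNA was present in the astrocyte libraries, and its marker sum differed between the groups. The 10 microglia markers summed to 492.5 to 501.8 CPM in WT, 1191 to 1221 in CKO, 912.8 to 946.6 in AD WT and 886.4 to 892.8 CPM in AD CKO. Of the 10, 9 rose and 1 fell in CKO vs WT, and none was at 0. In AD CKO vs AD WT, where both receptors rose, 6 rose and 2 fell, and the marker sum was not higher. Per 100 CPM of these markers, C3ar1 stood at 0.700 and 0.841 in WT, 3.08 and 3.21 in CKO, 1.67 and 1.27 in AD WT, and 3.46 and 3.36 in AD CKO astrocytes. The same measure in microglia was 0.869 and 0.854, 3.12 and 2.94, 1.39 and 1.39, and 3.57 and 3.43 in the same order, so the astrocyte and microglia values lay close to each other in every group. For C5ar1 they were 1.79 and 1.89 against 2.04 and 2.10 in CKO and 1.78 and 1.67 against 1.81 and 1.76 in AD CKO, but 0.915 and 0.973 against 0.398 and 0.390 in WT.

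C1qb per 100 CPM of microglia markers was 8.15 and 8.65 in WT astrocytes against 10.5 and 10.99 in WT microglia. It was 44.3 and 40.9 against 22.6 and 23.3 in CKO, above the microglial value in that group. In AD WT it was 20.7 and 18.4 against 14.0 and 13.7, and in AD CKO 27.1 and 26.4 against 23.5 and 25.1. The marker sum itself fell in microglia, from between 45960 and 47520 CPM in WT to between 24070 and 24390 CPM in CKO. The measure thus rose there although C1qb rose by only 0.15 on the log2 scale. Border macrophage markers in astrocytes summed to 19.14 to 19.21 CPM in WT and 60.52 to 72.7 in CKO, and rose in 5 of 7 genes. They summed to 17.91 to 18.06 CPM in AD WT and 37.63 to 43.48 in AD CKO, and 4 of 7 rose between these groups. The part of microglia or other macrophages in the astrocyte values was not tested.

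**Figure D4:**
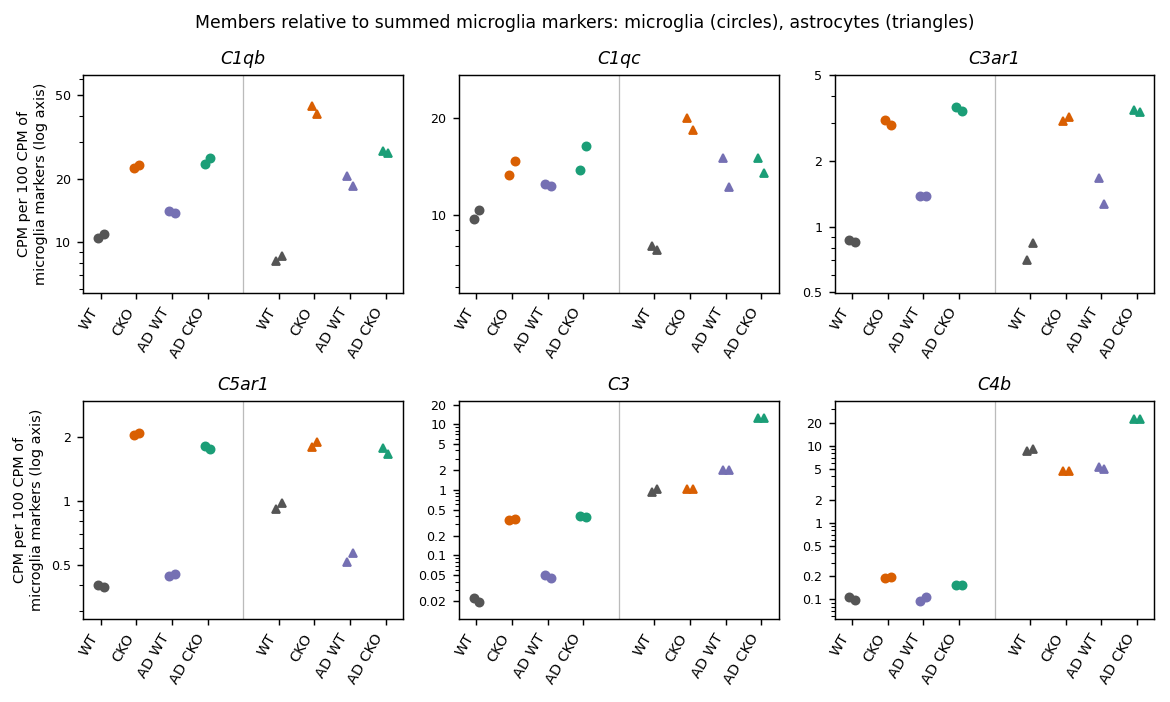
CPM of 6 members per 100 CPM of the summed microglia markers in each library, on log axes that differ between panels, with microglia as circles and astrocytes as triangles. C3ar1 lies at similar values in both cell types in each group, 3.08 to 3.57 in the knockout groups apart from 2.94 in 1 CKO microglia library, whereas C4b lies between 4.64 and 22.7 in astrocytes and at 0.198 or less in microglia.

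C3, C4b, Cfb and Serping1 did not lie close to their microglia values in the way C3ar1 did. Per 100 CPM of microglia markers each was higher in every astrocyte library than in any microglia library. The marker sum was 492.5 to 1221 CPM in astrocyte libraries and 24070 to 47520 CPM in microglia libraries. A gene of similar CPM in both cell types thus comes out higher in astrocytes by this measure, whatever its source. Cfb lay between 0.614 and 1.59 in astrocytes and at 0.0264 or less in microglia. Serping1 lay between 2.83 and 5.27 in astrocytes and at 0.0247 or less in microglia. C3 in astrocyte libraries stood at 4.70 and 5.04 CPM in WT, 12.2 and 12.6 in CKO, 18.5 and 18.8 in AD WT, and 111 and 113 CPM in AD CKO. The groups did not overlap, and AD CKO exceeded each of the others by far. C3 rose by 1.35 ± 0.10 with the knockout, by 1.93 ± 0.09 with the AD model, by 2.59 ± 0.07 in AD CKO vs AD WT (6.01-fold) and by 3.18 ± 0.08 in AD CKO vs CKO. The interaction was 1.24 ± 0.12 (adjusted p = 1.40e-08), opposite in sign to that of C3 in microglia. Per 100 CPM of microglia markers C3 stood at 12.5 and 12.7 in AD CKO astrocytes and at 0.401 and 0.390 in AD CKO microglia. In WT and CKO astrocytes this measure of C3 was close, at 0.936 and 1.02 against 1.03 and 1.03.

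C4b was high in AD CKO astrocytes. It stood at 42.8 and 45.1 CPM in WT, 56.7 and 56.7 in CKO, 48.3 and 46.8 in AD WT, and 201 and 201 CPM in AD CKO astrocytes. It rose by 0.37 ± 0.06 in CKO vs WT and by 2.08 ± 0.06 in AD CKO vs AD WT (4.22-fold, adjusted p = 7.36e-18), by 1.83 ± 0.06 in AD CKO vs CKO, and with an interaction of 1.71 ± 0.08. With the AD model alone it gave 0.11 ± 0.06 (adjusted p = 0.127). Per 100 CPM of microglia markers C4b was lower in CKO astrocytes (4.76 and 4.64) than in WT (8.53 and 9.16). In AD WT it was 5.29 and 4.95, and in AD CKO 22.65 and 22.54. C4a, its near copy, stayed at or below 1.12 CPM in all astrocyte libraries, and the sum of both gave 2.08 in AD CKO vs AD WT.

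Cfb and Serping1 rose with the knockout in both backgrounds. Cfb stood at 7.45 and 6.03 CPM in WT, 10.8 and 11.2 in CKO, 5.60 and 7.52 in AD WT, and 13.8 and 14.2 CPM in AD CKO, a rise of 0.72 ± 0.14 and of 1.10 ± 0.14 within the AD model. Its rise in AD CKO vs CKO (0.35 ± 0.13, adjusted p = 0.0281) was lost with upper quartile scaling, with DESeq2 and without either library of either group. C2 fell in AD CKO vs AD WT by 0.75 ± 0.14. Cfb and C2 counts were both fractional in 5 of the 8 astrocyte libraries, where their sum was not whole either. In microglia both were whole in all 8 libraries. How those reads were assigned is not given, and the sum of Cfb and C2 was not tested. Serping1 went from 19.5 and 18.8 CPM in WT to 47.0 and 46.8 in CKO (1.29 ± 0.07), and from 28.3 and 26.8 in AD WT to 46.4 and 47.1 CPM in AD CKO (0.76 ± 0.07). AD CKO and CKO differed by −0.01 ± 0.07 on the log2 scale (adjusted p = 0.944).

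Markers of several cell types changed in the same astrocyte libraries, not all in the direction of C3, C4b, Cfb and Serping1. All 10 oligodendrocyte markers rose in AD CKO vs AD WT astrocytes, from between 6961 and 7163 to between 19090 and 19230 CPM, and their sum was 14590 to 14760 CPM in WT and 13400 to 13750 CPM in CKO. All 10 astrocyte markers fell in CKO vs WT and in AD CKO vs AD WT, from between 24770 and 25130 to between 10630 and 10890 CPM and from between 23800 and 24520 to between 14650 and 14790 CPM. Fibroblast markers rose in 5 of 6 genes and fell in 1 in AD CKO vs AD WT, and their sum was 75.22 to 83.27 CPM in AD WT and 93.3 to 94.43 CPM in AD CKO. Endothelial markers rose in 7 of 8 genes in CKO vs WT, from between 2383 and 2393 to between 6882 and 6989 CPM, and mural markers in 7 of 8, from between 828.9 and 860.4 to between 1905 and 1916 CPM. Ependymal and choroid plexus markers rose in 5 of 6 genes in CKO vs WT and in all 6 in AD WT vs WT, and their sum was 4285 to 4605 CPM in WT, 9153 to 10470 in CKO, 8343 to 9471 in AD WT and 5409 to 5809 CPM in AD CKO. Their part in these members' changes was not tested.

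The rest of the pathway was followed through 53 further genes, whose counts stand beside 17.7% of all genes higher and 15.9% lower in CKO vs WT microglia. Of 17 genes that start the cascade, 9 could be tested in microglia, and 5 rose in CKO vs WT, among them Cfp, which encodes properdin (0.75 ± 0.14), and C1ra, which encodes a C1 protease (0.65 ± 0.15). Of 19 regulators 12 could be tested there, and 2 fell. Among them Csmd3, a large membrane protein with complement control repeats, fell by 0.86 ± 0.05 in CKO vs WT and by 0.90 ± 0.05 within the AD model. Of 10 receptors and C1q-binding proteins 2 rose and 5 fell in CKO vs WT, with Cd93 up by 1.58 ± 0.11. Of 7 terminal components only 1 could be tested in microglia, and it was not called in any comparison.

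Within the AD model the knockout changed these lists in microglia as 2 up and 3 down of 9 for initiation, 1 up and 5 down of 12 for regulators, and 3 up and 2 down of 10 for receptors, beside 17.0% of all genes higher and 15.0% lower. C1ra rose by 1.01 ± 0.15, and Itgax, which encodes the alpha chain of complement receptor 4, fell by 0.83 ± 0.05. Itgax had the largest rise of the lists with the AD model itself, from 56.8 ± 1.04 to 229 ± 8.98 CPM (2.01 ± 0.06). In that comparison 3 of 9 initiation genes rose and 1 fell, beside 10.7% and 8.62% of all genes, with Masp1, which encodes a lectin pathway protease, at 1.25 ± 0.09. Itgax rose in AD CKO vs CKO too, by 1.62 ± 0.06. The interaction was negative for 3 of 9 initiation genes, positive for 2 and negative for 2 of 12 regulators, and positive for 3 and negative for 2 of 10 receptors, beside 12.7% of all genes, with Cd93 at −1.12 ± 0.15 and Itgam at 0.40 ± 0.05.

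In CKO vs WT astrocytes 6 of 16 regulators tested rose and 6 fell, and of 10 receptors 5 rose and 2 fell, beside 31.6% of all genes higher and 32.4% lower. Among the receptors Itgb2, the shared beta chain of complement receptors 3 and 4, rose by 1.89 ± 0.13. Masp1 fell by 1.81 ± 0.07. In AD CKO vs AD WT, where C3 and C4b rose, 4 of 9 initiation genes rose and 2 fell, beside 25.1% and 27.0% of all genes. C1ra rose by 1.09 ± 0.15 and C1s1, which encodes the other C1 protease, by 1.03 ± 0.11, from 9.39 ± 0.38 to 19.1 ± 1.64 CPM. Masp1 fell there too (−0.79 ± 0.06). Of 16 regulators tested 5 rose and 3 fell, and of 10 receptors 3 rose and 3 fell, beside the same shares of all genes. Hc, which encodes C5, rose by 0.96 ± 0.13, and Cd55, which encodes a membrane inhibitor of C3 cleavage, by 0.88 ± 0.08. Itgam, the alpha chain of complement receptor 3, rose by 1.48 ± 0.10. With the AD model alone 4 of 16 regulators rose and 3 fell and 5 of 10 receptors rose and 1 fell, beside 20.0% and 18.0% of all genes, with Itgb2 at 1.43 ± 0.13. In AD CKO vs CKO Cd59a, which encodes an inhibitor of the membrane attack complex, fell by 0.81 ± 0.06.

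Genes with the most similar profile were found by the root mean square difference of centred log2 CPM over the 8 libraries of a cell type. In microglia the nearest to C3 was Cxcr4, at 0.152, ahead of Cybb at 0.192 and H2-Q6 at 0.201. The nearest to C3ar1 was Ftl1 (0.0587), to C5ar1 Rbm43 (0.0756), and to C1qc Rnaset2a (0.0306), and no member was among the 3 nearest of another. In astrocytes C1qa and C1qb were each other's nearest gene (0.123), and the nearest to C1qc was Fcgr3 (0.102). Mpeg1 was nearest to C3ar1 (0.236) and Cd300a to C5ar1 (0.15). C4b had Adgb (0.158) and Gbp6 (0.186) as nearest genes, whereas C3 had no close one, with Gbp6 nearest at 0.816.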

How the data were processed

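The authors deposited 1 table per cell type with expected counts of each gene. They are estimates that carry no scaling by depth, per the file values, and 27.0% to 33.6% of non-zero values per library were fractional. The submitters' processing notes name fastp, HISAT2, StringTie and mm10. The counting step and annotation are not given in the sources used here. Per the labels' protocols 10 ng of total RNA went into SMART-Seq amplification, followed by paired sequencing at 150 bases per read. All columns matched a sample by name.

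Counts were rounded and fitted in R 4.3.3 with edgeR 4.0.16 (filterByExpr, TMM, robust quasi-likelihood F-tests, two-sided) over the 8 libraries of a cell type. Of these genes 17318 and 20116 were tested, and all 9 members passed the filter in both. WT microglia and WT astrocytes were compared in a fit of all 16 libraries over 55405 shared features. P-values were adjusted by Benjamini-Hochberg over all genes of a comparison. A ± gives the SE where it follows a log2 difference and the SD (n = 2) where it follows a CPM. The test was tried on simulated CKO vs WT data with 1 common dispersion for all genes, with 100 well-counted genes changed per size and cell type. It recovered 100% of changes of 1 on the log2 scale in both cell types. Of changes of 0.5 it recovered 80% in microglia and 82% in astrocytes. Smaller changes were not simulated. Lengths came from GENCODE M21. Alternatives were RLE, upper quartile and total scaling, DESeq2 1.42.0, limma-voom (limma 3.58.1), other filters, the compared groups alone, a replicate block and each library left out. Summing C1qa with C1qc and C4b with C4a, and the ratio tests, over all libraries and within background, were added after seeing the data.

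Replicate libraries differed by more than counting noise in all groups (chi-square per gene 3.75 to 6.94, where counting noise alone gives about 1), so none looked like a duplicate deposit of another. This does not show that they came from separate animals. All members are named. Of 53 other complement genes, those named were up to 6 per comparison with the largest changes among those that passed and had a mean of at least 5 CPM, with C4a, C2 and the 3 genes nearest to each member. C5ar2 is among them. The values of 1 gene that this rule named are not reported here. The members, lists and this rule were chosen with earlier results of these data known.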

Additional observations from a re-analysis of the deposited data

Results flagged for a closer look

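Complement genes whose response to the knockout differed between the AD model and its absence, by the interaction term in edgeR, were C3 and C3ar1 in microglia, at −0.70 and −0.17 on the log2 scale. In both the knockout effect had the same sign in both backgrounds and was smaller in the AD model.

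In astrocytes the interaction was −2.82 for C1qa, −3.23 for C1qb, −2.55 for C1qc and −2.15 for C3ar1, each of which rose most with the knockout outside the AD model. It was −0.63 for C5ar1 and −0.53 for Serping1. It was positive for C3 (1.24) and C4b (1.71), whose knockout effect was larger within the AD model. The interaction was called for 57.8% of all astrocyte genes and 12.7% of microglia genes. Groups of 2 libraries were too small to look for single libraries that stand apart.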

How the results depend on the processing

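Of 1770 values of members under alternatives, 1714 kept their side of the threshold, 38 lost and 18 gained a call, and none reversed a called direction. Values uncalled in both fits could change sign and still count among the 1714. Cfb in AD WT vs WT astrocytes, for example, ranged from −0.273 to 0.156 on leaving out 1 library. The number of members called went from 2 to 1 in the microglia interaction with RLE size factors and without a filter, and from 3 to 5 in AD CKO vs CKO microglia with upper quartile scaling and with the filter of 1 CPM. Leaving out 1 library gave 3 to 6 members called in CKO vs WT microglia (3 without WT replicate 1), 2 to 4 in AD WT vs WT (2 without WT replicate 1) and 1 to 2 in the interaction. The genes called in AD WT vs WT microglia ranged from 2118 (without AD WT replicate 2) to 3355, and those of the interaction from 1385 to 1968 where all libraries gave 2202. Other complement genes called in AD WT vs WT astrocytes ranged from 10 (without WT replicate 2) to 19. Where 1 library remained in a group, the fit took its spread from the other groups. The compared groups alone could not be fitted for the interaction.

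Replicate numbers were shared across groups, but the differences between replicates 1 and 2 correlated between groups of a cell type by only −0.03 to 0.048 across genes, so they were not taken as pairs. With a replicate block 5 members were called in AD CKO vs AD WT microglia against 4, and 6142 genes in CKO vs WT microglia against 5815. The block also brought C4b past the threshold in AD CKO vs CKO microglia (−0.22), and changed no other call of a member. Scaling by totals moved the median of all genes by 0.19 in AD CKO vs AD WT, 0.11 in AD CKO vs CKO and 0.11 in the interaction of astrocytes, and by −0.29 between cell types (−0.27 with upper quartile). It moved the share of higher genes among those called from 55.4% to 41.8% in AD WT vs WT, 52.8% to 25.7% in AD CKO vs CKO and 43.5% to 31.6% in the interaction of microglia, and from 48.2% to 69.9% in AD CKO vs AD WT astrocytes. Upper quartile scaling moved it from 53.1% to 42.7% in AD CKO vs AD WT and to 42.1% in AD CKO vs CKO microglia. Cfb and Serping1 lay between 3 and 7 CPM in microglia, where standard errors of 0.21 or more limit what can be called.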
